A study of Gallus gallus with 6 samples.

Results

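Cytoplasmic ribosomal proteins are the protein part of the ribosome, the particle that translates mRNA in the cytosol. The chicken genes were chosen by name: every gene of the FPKM table whose NCBI Gene ID has a RefSeq symbol starting with RPL or RPS and a digit, or RPSA or RPLP, without the ribosomal protein S6 kinases and without symbols that end in L and a digit (9 kinases and 3 paralog symbols were left out). This gave 70 of the 20498 genes, 41 with RPL symbols (large subunit) and 29 with RPS symbols (small subunit). Liver mRNA was sequenced from 6 F1 male Jingxing-Huang chickens of 36 weeks, 1 library per bird. The 3 birds with fatty liver belonged to the paternal inheritance group, whose sires had fatty liver induced by a high-fat diet and were mated to hens without it. The parents of this group, hens included, were given the high-fat diet, so the diet of the dams differed from control too. The 3 control birds had non-fatty liver and came from parents kept on the basal diet. All 6 birds were themselves raised on the basal diet, and since every fatty liver came from the paternal group, the phenotype and the descent cannot be told apart.

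A ribosome holds 1 copy of nearly every one of its proteins, the stalk proteins RPLP1 and RPLP2 being the known exception, and a subunit lacking a protein is usually not completed. The mRNAs of these proteins are among the most abundant in any cell and are known in vertebrates to share a pyrimidine-rich start, the TOP motif, through which mTORC1 controls their translation. In liver, which makes most of the proteins of plasma, a large part of translation serves secretion. The question asked of the libraries was whether the ribosomal protein mRNAs, as a group, differed between fatty liver and control, and whether they account for a shift of the fold changes with gene length.

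The livers carried hepatocyte mRNA in every library. The 11 hepatocyte markers, among them albumin, summed to between 128000 and 138000 FPKM (fragments scaled to exon length and library size) in fatty liver and between 125000 and 156000 FPKM in control. Within this sum, albumin was lower in every fatty liver than in every control liver (mean 68243 against 96848 FPKM). APOA1 was higher in every fatty liver (mean 41671 against 20410 FPKM). The sum therefore does not show that the markers were alike in both groups. Library totals worked out from the FPKM were 9628492 to 10073155 fragments in fatty liver and 8860634 to 10403637 fragments in control, and the labels name no batch. The 10886 genes that averaged 1 FPKM or more were tested with limma on log2(FPKM + 1), and a DEG was a gene with a Benjamini-Hochberg adjusted p under 0.05. The log2 fold changes below are on that scale, fatty liver over control. The median over all tested genes was 0.12 as deposited and between -0.013 and 0.0023 after 4 other scalings of the libraries, so that a log2 fold change of a ribosomal protein gene is to be read against 0.12. The 11 hepatocyte markers had a median log2 fold change of -0.26 as deposited, and none of them was a DEG.

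Of the 70 genes, 68 reached the mean of 1 FPKM. A hand-written list of 79 common ribosomal subunits, drawn up after the values were seen, matched 67 of the 70 genes, 3 of them by synonym (RPSAP58 for RPSA, RPS4Y1 for RPS4 and RPL39L for RPL39). Among the listed subunits not analysed here were RPS9, RPS18, RPS19, FAU, RPL10, RPL13A, RPL18, RPL28 and RPL41, which had no row under these names. RPL14, a common subunit, was listed at 0 in all 6 libraries, while the other 66 common subunits averaged between 124 and 1680 FPKM. The remaining 3 genes share the name but are no common subunits. RPL3L is a paralog of RPL3 known from striated muscle in mammals, and it had 6, 2 and 1 fragments in the fatty livers and 0, 3 and 0 fragments in the control livers. RPS27L is a paralog of RPS27 that responds to p53 in human cells, and RPS19BP1 is a binding partner of RPS19.

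The ribosomal protein mRNAs were abundant in both groups. They made up 6.5, 7.67 and 8.26% of the summed FPKM in fatty liver replicates 1, 2 and 3, against 5.91, 7.92 and 7.63% in control replicates 1, 2 and 3. Because the mRNAs are short, they took a smaller part of the fragments, between 2.68 and 3.45% in fatty liver and between 2.33 and 3.16% in control. Of the 68 tested genes, 60 were among the 200 most abundant genes of these livers. The common subunits averaged 600 FPKM at the median, and 62 of the 66 lay between 300 and 1500 FPKM. The fewest fragments that a tested common subunit had in a library was 245 and the most was 11865, so counting error is small beside the differences between birds.

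No ribosomal protein gene was a DEG. The limma fit called 0 of 68, where 0.845% of all tested genes were called higher and 0.294% lower in fatty liver. These are 92 and 32 genes as deposited, and the split over all tested genes was 43 and 36 at the same median, 45 and 40 with quantile normalization, 44 and 40 without the 50 most abundant genes and 46 and 49 with voom. At an unadjusted p under 0.05 it gave 1 of 68 (RPS29), against 16.3% of all tested genes, and voom on the fragments called 0 and gave 0 at the unadjusted threshold. In 3 of 68 genes (RPS29, RPLP2 and RPS27L) every fatty liver was above every control liver, against 18.3% of all tested genes, and in 0 of 68 was every fatty liver below, against 4.78%. As deposited, both shares of the ribosomal protein genes (3 and 0 of 68) were thus under those of all tested genes, but both were above them once the libraries were rescaled to the same ribosomal protein level (11.8% against 7.83% higher and 13.2% against 7.87% lower), so nothing is read from them.

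The median log2 fold change of the 68 genes was 0.16, which is 0.039 above that of all tested genes. It was 0.16 for the 39 tested RPL genes and 0.16 for the 29 RPS genes. As deposited, 61 of 68 were higher in fatty liver (89.7%, against 67.2% of all tested genes), but after the 4 other scalings (the same median, quantile normalization, rescaling without the 50 most abundant genes, and voom) only 37, 31, 32 and 37 were. The absolute log2 fold change was 0.17 at the median of the members and the SE 0.20, and in 27 of 68 members it was above the SE of that member. Single birds moved the median of the members: it was 0.010 without control replicate 1, 0.082 without fatty liver replicate 3, 0.26 without control replicate 2 and 0.28 without fatty liver replicate 1. Summed over the members, fatty liver had 48172 ± 6335 FPKM and control 43379 ± 6935 FPKM (SD, n = 3 each), a difference smaller than either SD.

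**Figure D1:**
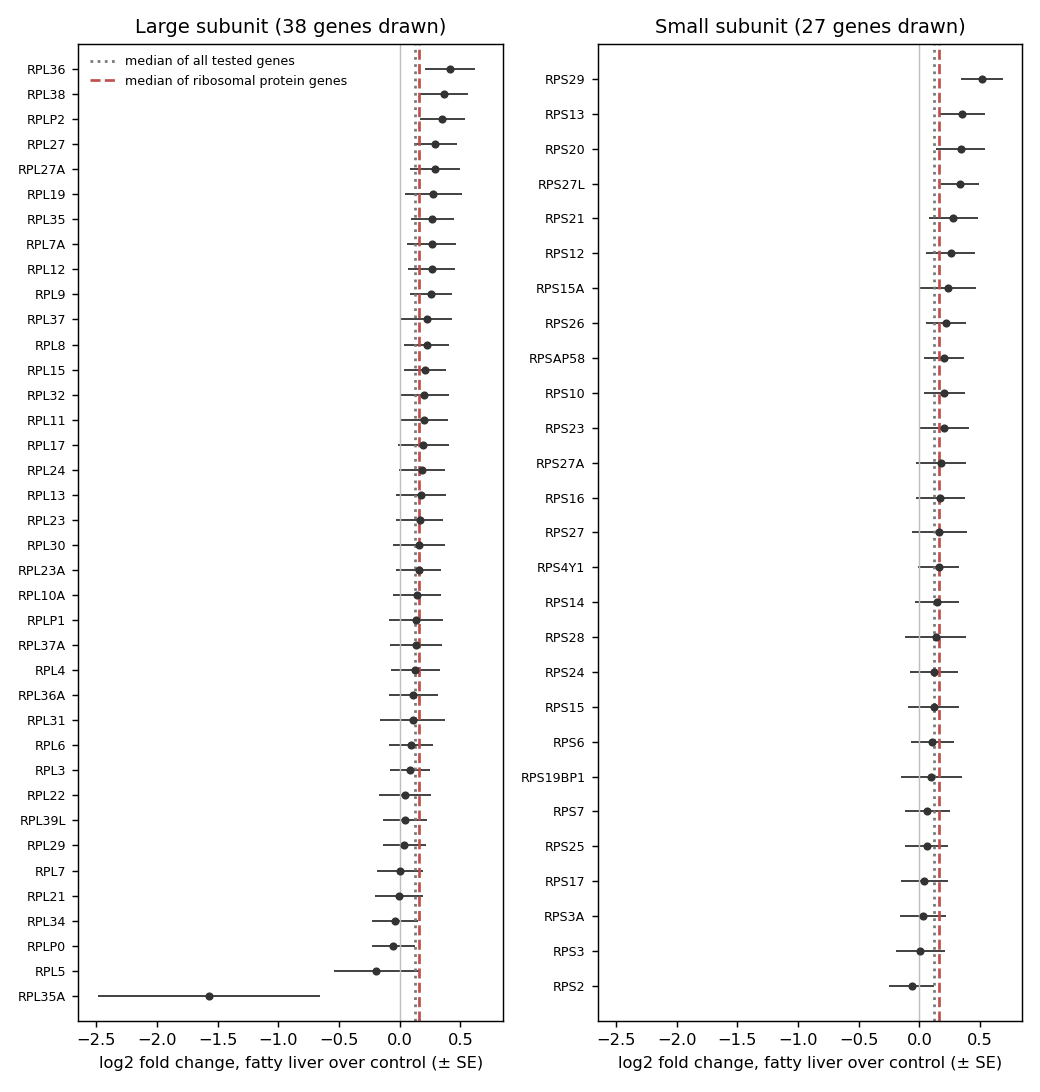
Log2 fold change of 65 of the 68 tested genes, fatty liver over control, on log2(FPKM + 1); points are limma estimates, bars are their SE (n = 3 birds a group), and genes are split by RPL and RPS symbols. Most points lie near the median of all tested genes, 0.12 (dotted line), and the median of the ribosomal protein genes is 0.16 (dashed line); RPL35A stands at -1.57 with an SE of 0.92.

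The larger part of the variation was between birds of the same group and was shared by nearly all members. The summed level was 41201, 49740 and 53576 FPKM in fatty liver replicates 1, 2 and 3, and 35446, 48288 and 46404 FPKM in control replicates 1, 2 and 3. In each group replicate 1 had the lowest summed FPKM of these genes, and the groups overlapped. FPKM are shares, and other genes moved too. In log2 units from each gene's mean, the median of all tested genes was 0.089 in fatty liver replicate 1 and -0.19 in control replicate 1. Relative to it, the median of the members was -0.225 in fatty liver replicate 1 and -0.184 in control replicate 1. Fatty liver replicate 1 was the lowest of its group in 65 of 68 genes and control replicate 1 in 65 of 68, and both held in 64 (94.1%, against 17.9% of all tested genes). Control replicate 1 was the lowest of all 6 libraries in 61 of 68 genes, and it was so in 36.9% of all tested genes. These 2 libraries were singled out after their values were seen. They come from separate birds, and whether they had more in common than the replicate number, such as handling, was not tested.

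The SD of a member within a group was 0.240 on the log2 scale at the median, close to the 0.238 of all tested genes. When the median deviation of the ribosomal protein genes was taken out of each library, the SD fell to 0.072, while the same step with all tested genes and their own median left 0.217. The 7 tested genes of other ribosome components and partners, RACK1 among them, went to 0.084 from 0.1955 with their own median taken out. Of these, 71.4% had both first libraries lowest. Mitochondrial ribosomal proteins, coded by another set of genes, went to 0.133 from 0.226 when their own median was taken out, and oxidative phosphorylation subunits to 0.125 from 0.212. The remaining lists ended between 0.119 (ribosome quality control and p53 surveillance) and 0.182 (RNA polymerase I and its factors). The lists differ in abundance, and no allowance was made for it. These are descriptions and were not tested against each other. The libraries did not stand in the same order for the cytoplasmic and the mitochondrial ribosomal proteins. The median of the ribosomal protein genes deviated by -0.14 in fatty liver replicate 1, where that of the mitochondrial ribosomal proteins was 0.030. In control replicate 3 it deviated by 0.033, where the mitochondrial ones were at -0.24.

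**Figure D2:**
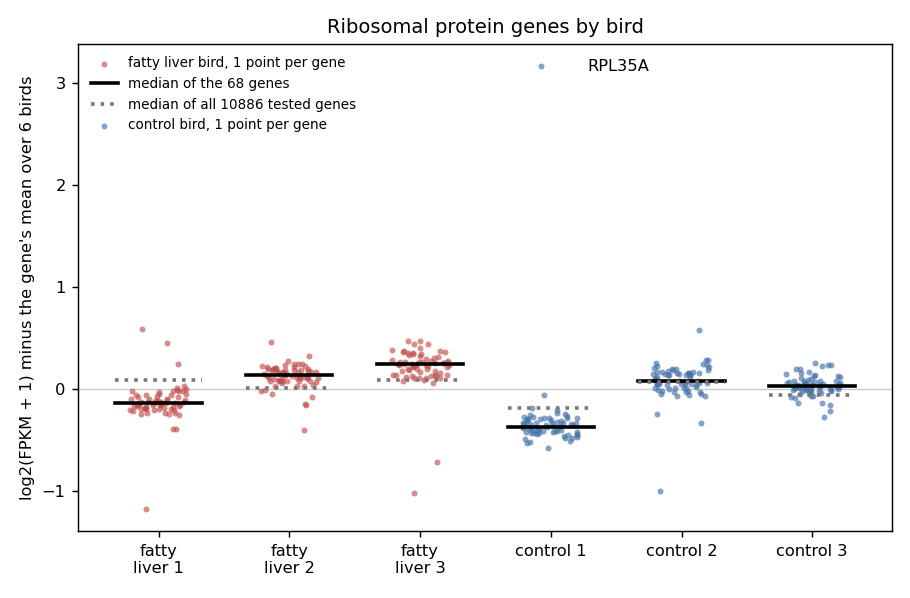
Deviation of log2(FPKM + 1) from each gene's mean over the 6 birds, 1 point per ribosomal protein gene, with the median of the 68 genes (black bar) and of all 10886 tested genes (dotted bar) in each library. The genes of a library lie close together, with medians of -0.14, 0.13 and 0.24 in the fatty liver birds and -0.37, 0.078 and 0.033 in the control birds; RPL35A in control replicate 1 lies far above the rest.

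The summed leukocyte and cholangiocyte markers were also lowest in the first library of each group. The 7 of 9 leukocyte markers with a row summed to 229, 708 and 1250 FPKM in fatty liver replicates 1, 2 and 3 and to 370, 577 and 785 FPKM in control replicates 1, 2 and 3, with none at 0 in all libraries and none called, and 6 of the 7 had both first libraries lowest. The 5 cholangiocyte markers summed to 53.2, 66.4 and 114 FPKM in fatty liver and 58.3, 77.1 and 113 FPKM in control, but only 3 of the 5 had both first libraries lowest (not EPCAM and SOX9). Among these 3 was a row with the symbol KRT24, read for the planned marker KRT19, which averaged 4.01 FPKM. SOX9 was called higher in fatty liver. Of the other cholangiocyte markers, SPP1 and KRT24 had log2 fold changes of 0.65 and 0.135, and KRT7 and EPCAM of -0.22 and -0.59. The call of SOX9 is therefore not read as a change of cholangiocytes. The sums of the erythrocyte, endothelial, and stellate cell and fibroblast markers did not have the first library lowest in both groups. By gene, however, both first libraries were lowest in 3 of 5 erythrocyte markers (HBAD, HBBA and ALAS1). This also held in 3 of 7 stellate cell and fibroblast and 1 of 5 endothelial markers. Of the hepatocyte markers, 1 of 11 had this order. The 5 erythrocyte markers summed to between 959 and 1930 FPKM in fatty liver and between 1230 and 1340 FPKM in control. The 1 of them called higher was ALAS1, which stood in for the listed ALAS2 through a synonym and is not read as a change of erythrocytes. The 5 endothelial markers summed to between 43.3 and 51.8 FPKM in fatty liver and between 30.3 and 52.2 FPKM in control. The 7 stellate cell and fibroblast markers summed to between 174 and 200 FPKM in fatty liver and between 115 and 238 FPKM in control. The part of any of these cell types in the level of ribosomal protein mRNA was not tested. In whole liver, fewer cells of a type and less mRNA per cell cannot be told apart.

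**Figure D3:**
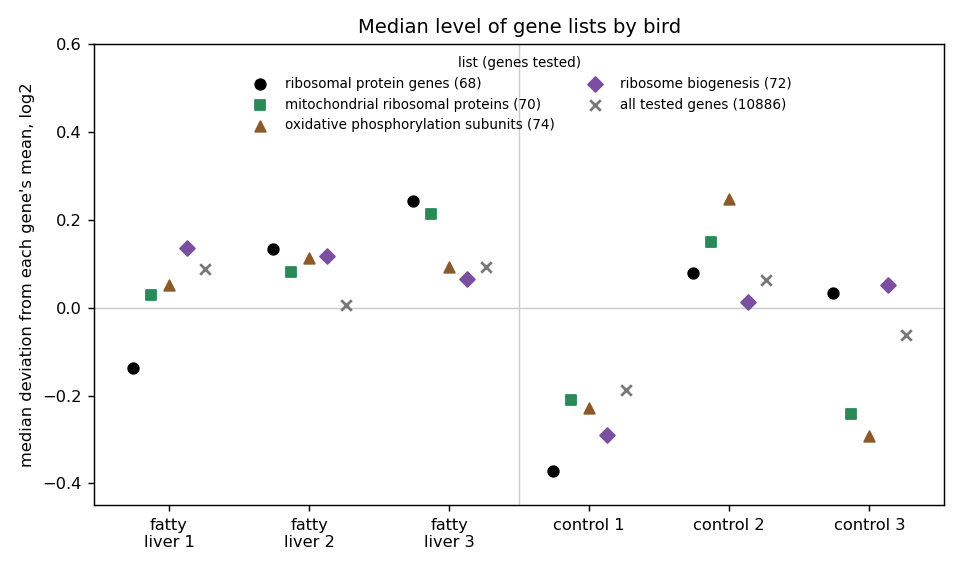
Median deviation of 4 gene lists and of all tested genes in each bird, in log2 units from each gene's mean; the number of genes tested stands in the legend. Ribosomal protein genes (black circles) are below the all-gene median in fatty liver replicate 1 and control replicate 1 and at or above it in the other 4 birds.

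Among the most abundant members were proteins of both subunits. RPLP1, an acidic protein of the stalk that binds the elongation factors, was first with 1441, 1780.5 and 2028 FPKM in fatty liver and 1188, 1896 and 1743 FPKM in control, a log2 fold change of 0.14 (SE 0.22, adjusted p = 0.817). RPL37A, a small zinc-binding protein of the large subunit, followed with 1488, 1708 and 1944 FPKM in fatty liver and 1183, 1921 and 1647 FPKM in control. In both genes control replicate 1 was the lowest and fatty liver replicate 3 the highest of the 6 birds, and the groups overlapped. RPS6, the substrate of the S6 kinases and a classic readout of mTORC1 activity at the protein level, had 1165, 1323 and 1342 FPKM in fatty liver and 978, 1369 and 1238 FPKM in control (log2 fold change 0.11, adjusted p = 0.818).

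In others of the most abundant members the groups also overlapped, RPS29 excepted, but the highest bird was not always fatty liver replicate 3. RPS3A had 999, 1268 and 1245 FPKM in fatty liver and 916, 1284 and 1259 FPKM in control. RPL27, a gene mutated in some patients with Diamond-Blackfan anaemia in man, had 1057, 1191 and 1241 FPKM in fatty liver and 782, 1083 and 1002 FPKM in control. RPL37, RPS23 and RPL39L, of which RPS23 lies at the decoding centre and RPL39 lines the exit tunnel, had log2 fold changes of 0.22, 0.20 and 0.045. The adjusted p of these 5 genes lay between 0.452 and 0.960, and none is shown to differ.

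RPS29 had the highest log2 fold change of the members. It codes for a small zinc-binding protein of the head of the small subunit. Its level was 1177, 1394 and 1594 FPKM in fatty liver and 874, 972 and 1048 FPKM in control, so that all 3 fatty livers were above all 3 control livers. The mean was 1388 ± 209 FPKM in fatty liver and 965 ± 86.9 FPKM in control (SD, n = 3 each), a log2 fold change of 0.52 (SE 0.17) with an unadjusted p of 0.017 and an adjusted p of 0.193. Its adjusted p stayed between 0.137 and 0.499 over the alternatives, and its log2 fold change between 0.35 and 0.63. It is therefore not a DEG here, and as 1 of 68 at the unadjusted threshold it does not exceed the 16.3% of all tested genes.

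RPL36, RPL38, RPLP2 and RPS13 came next. RPL36 had 768, 1053 and 858 FPKM in fatty liver and 535, 797 and 690 FPKM in control (log2 fold change 0.41, SE 0.20, adjusted p = 0.369), the groups overlapping by 1 bird of each. RPL38, which in the mouse is needed for the translation of Hox mRNAs in the embryo, had 587, 726 and 792 FPKM in fatty liver and 448, 633 and 558 FPKM in control (0.36, SE 0.19, adjusted p = 0.403). RPLP2, the partner of RPLP1 in the stalk, had 569, 621 and 781 FPKM in fatty liver and 438, 555 and 545 FPKM in control (0.35, SE 0.19, adjusted p = 0.394). The groups of RPLP2 did not overlap, by a margin that is small beside the range within fatty liver. RPS13 had 302, 365 and 406 FPKM in fatty liver and 229, 308 and 305 FPKM in control (0.35, SE 0.19, adjusted p = 0.413).

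The 3 stalk proteins did not stand together. RPLP0, which anchors RPLP1 and RPLP2 to the ribosome, had 601, 679 and 760 FPKM in fatty liver and 607, 706 and 808 FPKM in control, a log2 fold change of -0.054 (SE 0.18, adjusted p = 0.915), against 0.14 for RPLP1 and 0.35 for RPLP2. None of the 3 passed the test, and the differences between them were not tested.

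RPL35A and RPL5 had the lowest log2 fold changes and were the common subunits in which the first libraries were not both the lowest of their groups, as was also the case in RPS27L and RPS19BP1. In the other 64 tested common subunits the highest library was between 1.34 and 1.97 times the lowest, with a median of 1.54. In RPL35A, a large subunit protein whose gene is mutated in some patients with Diamond-Blackfan anaemia in man, it was 21.0 times the lowest. Its level was 30.9, 64.2 and 34.6 FPKM in fatty liver and 649, 35.0 and 81.8 FPKM in control. Control replicate 1, the bird with the lowest FPKM in most members, thus had 7.94 times the RPL35A of the next bird. That level, 649 FPKM, lay within the 300 to 1500 FPKM that held the means of 62 of the 66 tested common subunits. The other birds lay below that range. Of the 648 tested genes averaging 100 FPKM or more, RPL35A was the only one whose highest library was at least 5 times the next, and 0.184% of all tested genes had such a library. The log2 fold change was -1.57 with an SE of 0.92 and an adjusted p of 0.439, and without control replicate 1 it was -0.38.

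RPL5, which carries the 5S rRNA into the large subunit together with RPL11 and which in mammals binds MDM2 when ribosomes cannot be completed, had 177, 105 and 71.0 FPKM in fatty liver and 98.0, 175 and 116 FPKM in control. The highest library was 2.5 times the lowest, and the groups overlapped (log2 fold change -0.19, SE 0.35, adjusted p = 0.836). RPL11, its partner, had 512, 695 and 714 FPKM in fatty liver and 464, 580 and 625 FPKM in control. It had the first library of each group lowest, like most members. The level of RPL5 was thus below that of RPL11 in every bird, on the FPKM scale, which is per length. RPL5 and RPL35A were the common subunits with the lowest mean FPKM apart from RPL14. Whether reads of these genes were shared with other copies in the authors' counting was not tested.

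**Figure D4:**
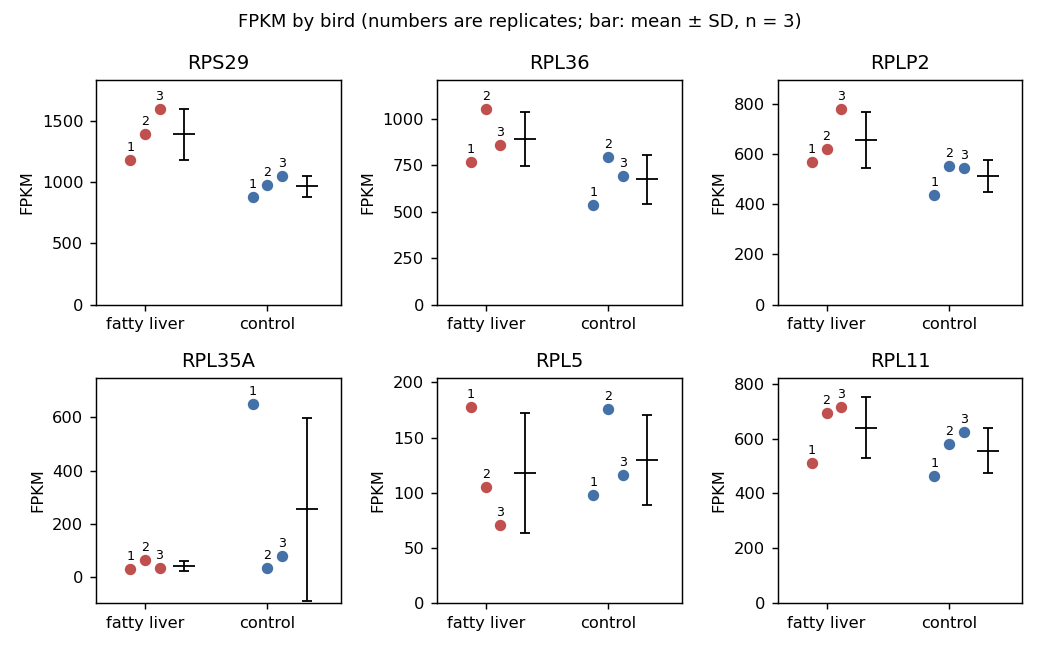
FPKM of 6 ribosomal protein genes in each bird; points are birds with their replicate number, and the bars are the mean ± SD of 3 birds. RPS29 and RPLP2 separate the groups, RPL36 overlaps, and the RPL35A mean of the control group rests on replicate 1 with 649 FPKM, the other 5 birds lying between 30.9 and 81.8.

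The remaining low fold changes were near 0. RPS2, at the mRNA entry of the small subunit, had 486, 547 and 636 FPKM in fatty liver and 489, 594 and 667 FPKM in control (log2 fold change -0.064, adjusted p = 0.900). RPL34, with -0.038, and RPL21, with -0.0079, were also below 0.

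Relative to the other ribosomal protein mRNAs of the same bird, no member passed the test either. With the libraries rescaled to the same ribosomal protein level, an alternative chosen after the data were seen, 0 of 68 were called and the lowest adjusted p was 0.468 (RPS29). In 8 of 68 every fatty liver was then above every control liver (11.8%, among them RPL27, RPL35, RPL38, RPS12, RPS13, RPS20 and RPS29), against 7.83% of all tested genes, and in 9 of 68 every fatty liver was below (13.2%, among them RPL7, RPL21, RPL29, RPL34, RPLP0, RPS2, RPS3 and RPS3A), against 7.87%. Both shares were above those of all tested genes, where as deposited they were below. The rescaling takes out the shared deviation of the members themselves and so narrows their spread within a group. The comparison with all tested genes therefore cannot decide anything, and nothing is read from these shares. Both directions held genes of both subunits. The limma fit draws the variance of each gene toward that of all tested genes of like abundance. With their shared deviation taken out, the members had a median SD within a group of only 0.072. The lack of calls on this scale therefore cannot show that no member differed relative to the others.

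The genes that share the name without being common subunits had their own patterns. RPS27L had 184, 175 and 165 FPKM in fatty liver and 131, 157 and 128 FPKM in control, all fatty livers above all controls (log2 fold change 0.34, SE 0.16, adjusted p = 0.340). Fatty liver replicate 1, the lowest fatty liver in most members, was the highest here. RPS27 itself had 433, 551 and 683 FPKM in fatty liver and 388, 530.1 and 563 FPKM in control. RPS19BP1 had 14.6, 7.63 and 11.3 FPKM in fatty liver and 9.94, 8.05 and 12.6 FPKM in control (log2 fold change 0.098, adjusted p = 0.889).

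Among ribosomal genes that the naming left out, RACK1 and RPL26L1 did not pass the test. RACK1, a scaffold on the small subunit that binds protein kinase C, had 419, 520 and 580 FPKM in fatty liver and 387, 510.2 and 492 FPKM in control (log2 fold change 0.13, adjusted p = 0.795) and had the first library of each group lowest, like most members. RPL26L1, left out as a paralog symbol although the gene table gives RPL26 as its synonym, had 563, 757 and 712 FPKM in fatty liver and 497, 670 and 631 FPKM in control (log2 fold change 0.18, adjusted p = 0.70). RPS27A, a member made as a fusion with ubiquitin, had 516, 605 and 727 FPKM in fatty liver and 433, 615 and 593 FPKM in control.

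The genes around the ribosome were read from hand-written lists, and limma called none of their members in either direction. Ribosome biogenesis (72 tested) had a median log2 fold change of 0.14 and 12 genes at an unadjusted p under 0.05 (16.7%, against 16.3% of all tested genes). Its highest gene was UTP23 (0.74, adjusted p = 0.377) and its lowest RRP36 (-1.03, adjusted p = 0.535). RRP36 had 11.1, 15.9 and 0.689 FPKM in fatty liver and 13.5, 13.7 and 12.99 FPKM in control, so that its fold change goes with the value of fatty liver replicate 3. It was not alone in this. RRP7A had 12.5, 11.25 and 0.156 FPKM in fatty liver, and RRP12 had 4.10, 4.18 and 0.282 FPKM. The list at large was not low in that bird, where its median deviated by 0.066 from each gene's mean in log2 units. The cause was not tested. RNA polymerase I and its factors (17 tested), which make the rRNA, had a median of 0.21 and 4 genes at the unadjusted threshold (23.5%, of few genes). The highest was MYC, a transcription factor that raises ribosome production, with 13.8, 11.8 and 6.97 FPKM in fatty liver and 2.86, 4.50 and 7.70 FPKM in control (1.01, SE 0.33, adjusted p = 0.192), the groups overlapping, and the lowest was POLR2F (-0.11), a subunit shared by the RNA polymerases.

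Factors that act on the ribosome gave no DEG either. Of the initiation factors (36 tested, median 0.12), EIF5A was highest with 394, 247 and 356 FPKM in fatty liver and 178, 193 and 229.9 FPKM in control (0.71, SE 0.21, adjusted p = 0.161), and EIF4B lowest with 95.2, 91.5 and 97.5 FPKM in fatty liver and 124, 126 and 143 FPKM in control (-0.46, SE 0.15, adjusted p = 0.182). Neither overlapped between groups, but both were picked for their extreme fold changes. The groups did not overlap, in either direction, in 19.4% of the tested initiation factors, against 23.0% of all tested genes. EIF5A helps the ribosome past stalling sequences, and EIF4B assists the helicase of initiation. The elongation factors (8 tested, median 0.15) ran between EEF2K at -0.20 and DPH2 at 0.61 (adjusted p = 0.134), and the mTORC1 list (29 tested, median 0.075) between DDIT4, an inhibitor of mTORC1, at -0.69 (adjusted p = 0.446) and TBC1D7 at 0.47 (adjusted p = 0.340). Ribosome quality control and p53 surveillance (13 tested, median 0.063) ran between GCN1 at -0.058 and MDM2, the ubiquitin ligase of p53, at 0.47 (adjusted p = 0.225). Among the 7 tested partners of the ribosome (median 0.13), BTF3 was highest at 0.20.

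The medians of the mitochondrial lists lay further above that of all genes than the cytoplasmic one did. The mitochondrial ribosomal proteins (70 tested) had a median of 0.23 and the oxidative phosphorylation genes (74 tested, taken by name and including assembly factors) a median of 0.21, with 3 (4.29%) and 9 (12.2%) genes at the unadjusted threshold, both under the 16.3% of all tested genes, and 0 called. MRPL3 was highest of the first with 26.6, 27.2 and 25.5 FPKM in fatty liver and 16.7, 21.0 and 13.8 FPKM in control (0.61, adjusted p = 0.155), and MRPS6 lowest with 73.5, 96.7 and 99.5 FPKM in fatty liver and 132, 148 and 123 FPKM in control (-0.58, adjusted p = 0.165). ATP5E was highest of the second (1.48, adjusted p = 0.186) and the assembly factor NDUFAF8 lowest (-0.31, adjusted p = 0.420). The difference between the mitochondrial lists and the cytoplasmic ribosomal proteins was not tested.

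Ribosomal protein mRNAs are short, so they were read against gene length. The tested common subunits measured between 357 and 1399 bases, with a median of 653.5 against 2457 for all tested genes, and 66 of the 68 members fell into the shortest of 5 equal classes of the tested genes (2178 genes of 61 to 1283 bases). That class had a median log2 fold change 0.041 above that of all tested genes, and the longest class one 0.068 below it. Without the ribosomal protein genes the shortest class was still 0.041 above, and without the mitochondrial ribosomal proteins and oxidative phosphorylation genes as well it was again 0.041 above. Genes left out of the class were left out of the all-gene median too. The members made up 3.03% of the class and their own median, 0.17, was close to that of the class, 0.16. With 10 classes, the shortest (61 to 869 bases, 52 members of 1089 genes) was 0.054 above with the members and 0.055 above without them. The shift was thus as large without the ribosomal protein genes, which at 3.03% of the class could move its median only little. The shift was also smaller than its own spread between birds of a group (SD 0.062, and 0.058 without the members). That spread was worked out for the shortest class only. By share of the summed FPKM, the shortest class did separate the groups. It held 50.4, 50.7 and 51.8% in fatty liver replicates 1, 2 and 3, against 41.3, 44.4 and 44.3% in control. The members averaged 7.48% of the summed FPKM in fatty liver and 7.15% in control. Such a share follows the most abundant genes, and its cause was not tested. With 1 bird left out it ran from 0.016 (without fatty liver replicate 3) to 0.085 (without fatty liver replicate 1). The next class (1283 to 2037 bases) was 0.038 above the median, and 70.1% of its genes were higher in fatty liver, against 69.2% in the shortest.

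**Figure D5:**
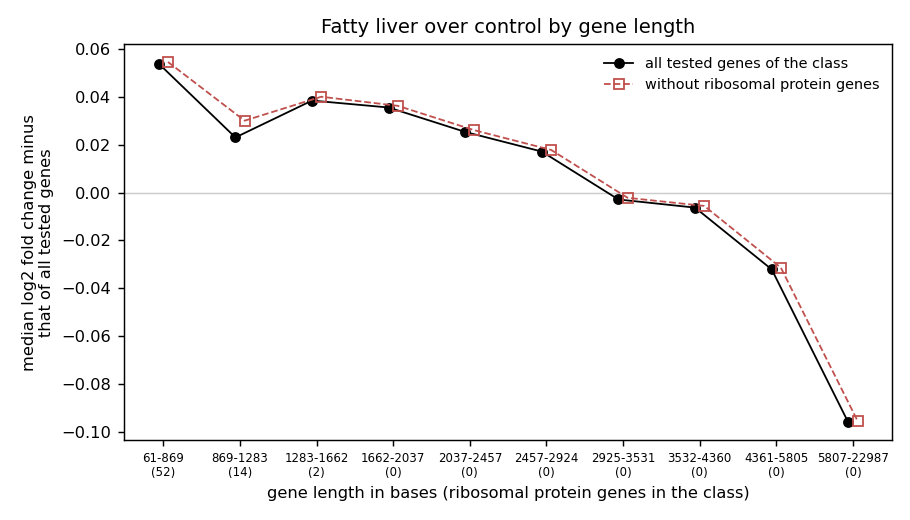
Median log2 fold change of 10 classes of gene length minus that of all tested genes, with (filled circles) and without (open squares) the ribosomal protein genes, whose number in each class stands in parentheses. The curves nearly coincide, the shortest class at 0.054 and 0.055 and the longest at -0.096 and -0.095.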

How the data were processed

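Total RNA of the 6 livers was turned into poly(A)-selected cDNA libraries and sequenced by the authors, who filtered the reads with Sickle and SeqPrep and mapped them to Gallus_gallus-5.0. The aligner, the counting tool and the annotation release are not given in the sources used here. The authors deposited FPKM per gene and library, fragments scaled to exon length and library size, and no further scaling is stated. FPKM are shares, so a change in the most abundant mRNAs moves the FPKM of all other genes.

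Gene symbols were taken by NCBI Gene ID from a RefSeq gene table of the later assembly bGalGal1.mat.broiler.GRCg7b (16332 IDs matched), used for names only. Whole fragments and gene lengths were worked out from the FPKM for all 17185 genes above 0. A length was kept only if it gave back the FPKM of every library, so the match (100%) was built in. In simulated data with known lengths, of a narrower range than those found here, 98.94% of genes had their fragments returned exactly. Genes averaging 1 FPKM or more were fitted as log2(FPKM + 1) with limma 3.58.1 in R 4.3.3, using a mean-variance trend and no covariate. Adjusted p-values are Benjamini-Hochberg over all 10886 tested genes. The fit and the recovery of fragments were tested on simulated data.

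The members and lists were chosen with earlier results of these data known. The named genes were the 10 most abundant members, the 5 highest and 5 lowest log2 fold changes, members under 1 FPKM or that are no common subunits, RACK1 and the highest and lowest gene of each list. Other members were named for their role after their values were seen. No gene or protein sequences were used, and results on a few further genes are not reported here.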

Additional observations from a re-analysis of the deposited data

How the results depend on the processing

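No ribosomal protein gene was called under any of the 18 alternatives run (their lowest adjusted p lay between 0.137 and 0.499). The median log2 fold change of the members was -0.012 to 0.079 under other scalings and 0.010 to 0.28 with 1 bird left out. Relative to all tested genes it ran from -0.049 to 0.18, its sign turning with quantile normalization and without fatty liver replicate 2 or 3 or control replicate 1, so that no direction relative to other genes is given. The shortest of 5 length classes stayed above the all-gene median, by 0.016 to 0.085 with the members and 0.019 to 0.081 without them. Of the 20 named members tested, 10 kept their sign and 10 changed it in 2 to 9 of the alternatives. The number of DEGs over all genes (124) was 30 with no filter on low values, 79 after scaling to the same median, 72 with FPKM rescaled to the same ribosomal protein level (added after the data were seen) and 20 to 127 with 1 bird left out; the cause was not tested. Without RPL35A and RPL5, also added then, the members' median was 0.17. For replicate numbers 1, 2 and 3, the deviations of the fatty liver and the control bird correlated at 0.025, 0.045 and 0.048 over genes. A correlation over genes at large cannot decide whether the number goes with the level of the ribosomal protein genes, which was not tested. With the number as a block, 140 genes and 0 members were called and the lowest adjusted p of a member was 0.137. Searches for a pyrimidine tract and the comparison with protein length were not run, since no sequences were at hand. With 3 birds a group, a shared change smaller than the spread between birds could not be shown.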
